A study of Mus musculus with 2 samples.

Results

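The genes described here are 8 transcriptional regulators of smooth muscle differentiation: Myocd, Srf, Prdm6, Tshz1, Tshz2, Tshz3, Sox9 and Tcf21. They were chosen for their role, as every non-control probe of a 2-colour Agilent mouse array that carries one of these gene names. Earlier results of these data were known when the regulators and the gene lists further on were chosen. Their counts beside all genes are thus descriptions and not tests of an independent choice. All 8 were found, with 10 probes in 19 spots, among 31870 names on the arrays. All 8 passed the filter on dim probes and were among the 20506 genes tested. Each of the 10 probes was well above background in all 4 RNAs.

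The RNAs came from ureters of NMRI mouse embryos at stage E14.5, when the mesenchyme around the ureteric epithelium begins to make smooth muscle. The control RNAs had the genotype Tbx18(+/+);Gata2(fl/?), in which the question mark leaves 1 Gata2 allele open, and the Gata2cKO RNAs had Tbx18(cre/+);Gata2(fl/fl). Gata2 is a zinc finger transcription factor, its loxP-flanked alleles (fl) were shared by both groups, and Cre recombinase was driven from the Tbx18 locus, which is active in the undifferentiated ureteric mesenchyme. Array 1 compared female RNAs, with the control in Alexa Fluor 555 and the Gata2cKO in 647, and array 2 compared male RNAs with the dyes exchanged. The question is how gene expression in the ureter differs when Gata2 is deleted in Tbx18-Cre cells. Cre and the altered Tbx18 allele were in the Gata2cKO only, so their effects cannot be told apart from those of the loss of Gata2. The labels do not tell how many embryos went into an RNA.

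Smooth muscle cells switch on their contractile genes through serum response factor, the product of Srf, which binds CArG boxes in DNA. Srf is made in many cell types. Myocardin, the product of Myocd, binds to serum response factor and raises its activity at smooth muscle genes. In the ureter, signals from the epithelium (SHH) and the mesenchyme (BMP4) lead to Myocd expression, and teashirt 3, the product of Tshz3, is needed for it. Sox9 and Tcf21 are transcription factors of progenitor cells, best known in cartilage and in visceral mesenchyme.

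The DNA element that links the regulators to their targets can be read in the proximal promoters. A CArG box was searched for as 2 C, then 6 bases that are each A or T, then 2 G, which reads the same way on both strands, in the 250 bases before each gene's start in a RefSeq table (GRCm38.p6). Of 27025 genes with a promoter in the table, 439 (1.62%) held such a box. A promoter was listed for 4 of the 8 regulators (Srf, Tshz2, Tshz3 and Tcf21), and that of Srf held 2 boxes, beginning 82 and 62 bases before the start. Of the contractile genes described further on, 13 of 16 had a promoter in the table, and Myl9 (box 161 bases before the start) and Vcl (227 bases before) held 1 each. These 3 promoters are printed 5′ to 3′ as the only ones of both sets with a match, with the boxes in capitals: Srf at chr17:46556163-46556412 (minus strand), Myl9 at chr2:156775214-156775463 (plus strand) and Vcl at chr14:20929148-20929397 (plus strand). A match is a run of letters and not a measured binding site. The search passes over boxes with a G or C among the 6 bases and any box outside the 250 bases. A promoter without a match can thus still belong to a gene with a box.
Srf: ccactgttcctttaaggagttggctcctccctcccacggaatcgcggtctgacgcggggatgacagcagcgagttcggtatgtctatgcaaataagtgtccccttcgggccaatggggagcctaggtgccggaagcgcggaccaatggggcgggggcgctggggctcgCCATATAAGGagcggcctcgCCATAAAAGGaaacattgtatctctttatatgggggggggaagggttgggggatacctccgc
Myl9: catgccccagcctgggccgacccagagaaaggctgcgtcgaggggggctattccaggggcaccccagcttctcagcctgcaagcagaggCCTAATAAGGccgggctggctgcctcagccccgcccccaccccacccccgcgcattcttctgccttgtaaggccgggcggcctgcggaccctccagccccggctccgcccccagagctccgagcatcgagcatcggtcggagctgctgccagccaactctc
Vcl: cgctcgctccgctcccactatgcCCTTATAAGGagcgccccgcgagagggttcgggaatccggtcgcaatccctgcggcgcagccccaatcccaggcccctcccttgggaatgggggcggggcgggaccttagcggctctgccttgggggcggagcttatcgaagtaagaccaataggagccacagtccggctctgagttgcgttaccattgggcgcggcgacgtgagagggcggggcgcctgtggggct

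The median spot signal was 433.1 and 428.1 in the 555 channel and 753.6 and 754 in the 647 channel of arrays 1 and 2. Between 65% and 68.5% of probes were well above background in an RNA. A ratio is given as log2 of Gata2cKO over control, with the SD over both arrays and the 95% interval from limma. Each p was adjusted by the Benjamini-Hochberg method over all genes tested. Of the 20506 genes, 18 (0.0878%) had an adjusted p under 0.05, and the median ratio was 0.0028. Across genes, the ratios of both arrays correlated weakly (Pearson r 0.064, Spearman rho 0.096), as a description over genes that share both arrays. In the brightest 25% of genes r was -0.57 over 5127 genes, and in the other 15379 genes it was 0.39. The probe of Gata2 showed no loss in the Gata2cKO RNAs, with ratios of 0.33 and 0.54 (mean 0.44 ± 0.15, SD, n = 2; adjusted p over probes = 0.416). Which stretch of the gene Cre removes is not stated, so this probe does not check the labels, and directions are given for the RNA labelled Gata2cKO by its dye. Tbx18 and all 10 urothelial genes examined (uroplakins, keratins and others), which mark the mesenchyme and the epithelium of the ureter, were well above background.

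None of the 8 regulators passed the adjusted p of 0.05. At an unadjusted p under 0.05 there were 4 (Myocd, Prdm6, Tshz3 and Sox9), beside 7.17% of all genes. Myocd, Prdm6 and Sox9 were lower in the RNA labelled Gata2cKO on both arrays, beside 26.2% of all genes. Tshz1, Tshz2 and Tshz3 were higher on both, beside 27% of all genes, though with median centring only Tshz3 was. Srf and Tcf21 had opposite signs on the arrays. Myocd and Prdm6 were at least 1.5-fold lower on both arrays, as were 0.439% of all genes. No regulator was at least 1.5-fold higher on both arrays, a size that 0.273% of all genes reached. Among all probes, 0.0585% passed the adjusted p, and none of the 10 probes of the regulators did.

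**Figure D1:**
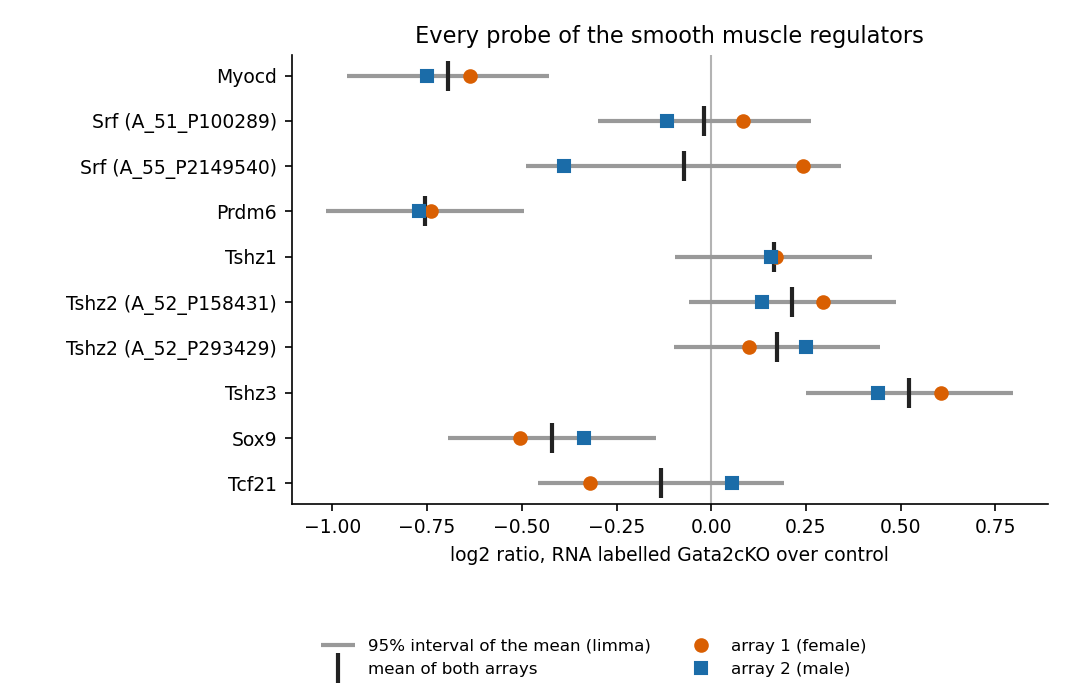
Log2 ratio of Gata2cKO over control for each of the 10 probes on array 1 (female, circles) and array 2 (male, squares), with the mean of both (tick) and its 95% interval from limma (bar). The points of Myocd, Prdm6 and Sox9 lie below 0 and those of the Tshz genes above it (with median centring only Tshz3 stayed above 0 on both arrays), while the points of Srf and Tcf21 lie on both sides.

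Myocd, which encodes the coactivator myocardin, had about 1.62-fold less signal in the RNA labelled Gata2cKO. Its 1 probe (A_55_P2021540) lies at chr11:64991930-64991989 (mm9, minus strand). The scanner software's processed signal was 60.7 in the control and 25.1 in the Gata2cKO on array 1, and 80.5 and 38.5 on array 2. Both Gata2cKO values were under both control values. After background correction and loess the ratios were -0.64 and -0.75, with a mean of -0.69 ± 0.081 (SD, n = 2; interval -0.96 to -0.43; adjusted p = 0.155). The arrays differed by far less than the mean itself, and Myocd ranked 112 from the lowest of all genes tested.

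The size of the Myocd ratio differed between the loess ratios and the processed signals, which differ in several steps, and its spots were dim. The normexp offset is a constant added to both channels after background correction. With an offset of 20 in place of 50 the mean of Myocd was -0.80. The uncorrected mean signal of the spot was 210.6 (control) and 215.3 (Gata2cKO) over local backgrounds of 37 and 58 on array 1. On array 2 it was 419.6 and 145.7 over backgrounds of 67 and 38.5. On the scanner software's processed signals the ratios were -1.27 and -1.06, a mean of -1.17 or 2.25-fold (adjusted p = 0.0123), and Myocd passed the threshold, as did 0.844% of all genes. In the authors' deposited table, a signed fold change whose direction was taken from its correlation with the scanner ratios, Myocd stood at -0.18 for array 1 and 0.49 for array 2 on the log2 scale. That table thus gave no common direction for Myocd, and its scale and centring are unstated.

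Srf, the DNA-binding partner of myocardin, differed little between the RNAs. Its brighter probe (A_51_P100289) is listed at chr17:46683788-46683795 (mm9, minus strand), which covers only part of its length. This probe had processed signals of 2456.8 (control) and 2592.1 (Gata2cKO) on array 1 and 3050.9 and 2800.6 on array 2. The ranges of the groups overlapped. Its ratios were 0.083 and -0.12, with a mean of -0.018 ± 0.14 (SD, n = 2; interval -0.30 to 0.26; adjusted p = 0.994).

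The other Srf probe (A_55_P2149540, chr17:46685306-46685365) disagreed between arrays in the same way. Its processed signals were 461.6 (control) and 543.4 (Gata2cKO) on array 1 and 625.6 and 483.5 on array 2. The ratios were 0.24 and -0.39, with a mean of -0.072 ± 0.45 (SD, n = 2; interval -0.49 to 0.34; adjusted p over probes = 0.984). Both probes were thus higher in the Gata2cKO on the female array and lower on the male array, and sex cannot be told apart from dye orientation there. In the authors' deposited table the first probe stood at -0.15 and 0.28 and the other at 0.37 and -0.29, so its signs disagreed between probes too.

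**Figure D2:**
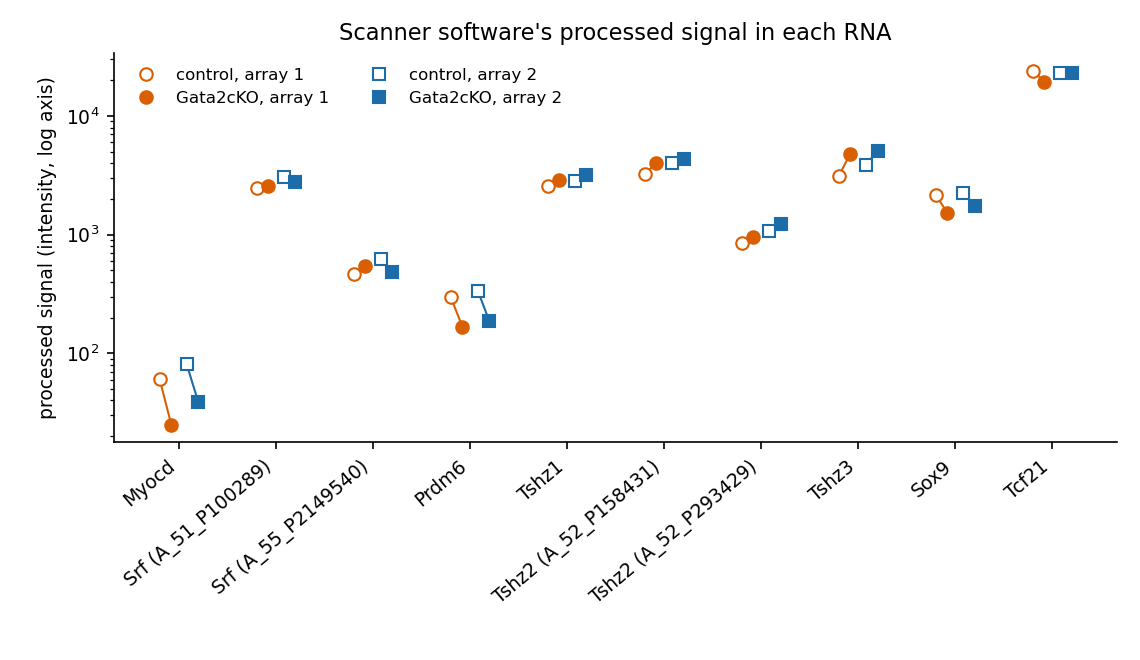
Processed signal (intensity, log axis) of each probe in the 4 RNAs, open for control and filled for Gata2cKO, with a line joining the RNAs of 1 array. The lines of Myocd, Prdm6 and Sox9 go down on both arrays and those of Tshz3 go up on both. Heights of different probes are not comparable as RNA levels.

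Prdm6, which encodes a PR domain protein that represses transcription in smooth muscle cells and holds back their differentiation in culture, had the lowest ratio of the 8 regulators after loess, though that of Myocd was lower on the processed signals (-1.17 against -0.85) and with a normexp offset of 20 (-0.80 against -0.79). Its 1 probe (A_55_P2043612) lies at chr18:53735413-53735472 (mm9, plus strand). The processed signal was 299.4 in the control and 167.6 in the Gata2cKO on array 1, and 336 and 185.6 on array 2. Both Gata2cKO values lay well under both control values, and the arrays gave nearly the same step. The ratios were -0.74 and -0.77, with a mean of -0.76 ± 0.021 (SD, n = 2; interval -1.02 to -0.50; adjusted p = 0.11), or 1.69-fold. Prdm6 ranked 89 from the lowest of all genes tested.

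Prdm6 was the only regulator lower on both arrays in the loess ratios, the processed signals and the deposited table alike. On the processed signals its ratios were -0.84 and -0.86 (mean -0.85, adjusted p = 0.0317), which passed the threshold. In the authors' deposited table it stood at -0.72 and -1.03. Over the 8 ways of processing tried beside the main one its mean ran from -0.88 to -0.756, and the arrays alone gave -0.74 and -0.77. Aquantile scaling, the other filters and the mean of a gene's probes left its ratio as it was, with 1 probe to use.

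The teashirt genes encode zinc finger proteins that act mostly as repressors, and all 3 had ratios above 0 after loess. Tshz3, whose product is needed for smooth muscle differentiation in the ureter and can bind both Sox9 and myocardin, had the highest ratio of the 8 regulators after loess. Its 1 probe (A_51_P387379) lies at chr7:37557872-37557931 (mm9, plus strand). The processed signal was 3116 in the control and 4832.2 in the Gata2cKO on array 1, and 3861.6 and 5109.4 on array 2. Both Gata2cKO values were above both control values. The ratios were 0.61 and 0.44, with a mean of 0.52 ± 0.12 (SD, n = 2; interval 0.25 to 0.80; adjusted p = 0.263), or 1.44-fold. Tshz3 ranked 165 from the highest of all genes tested, and in the authors' deposited table it stood at 0.89 and 0.475.

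After loess Tshz1 was higher by a small and even step, which median centring did not keep (0.285 and 0 on arrays 1 and 2). Its probe (A_51_P394833, chr18:84182013-84182072, mm9, minus strand) had processed signals of 2567.9 (control) and 2864.7 (Gata2cKO) on array 1 and 2830.6 and 3176.7 on array 2. The ratios were 0.17 and 0.16, with a mean of 0.165 ± 0.011 (SD, n = 2; interval -0.095 to 0.425; adjusted p = 0.82). A further probe that the file names by an Ensembl transcript, and describes as Tshz1, lay outside the choice of members. It gave ratios of 0.315 and -0.19, so it did not repeat the small step. In the authors' deposited table the Tshz1 probe stood at 0.14 and 0.064.

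Tshz2 had 2 probes, and all 4 of their ratios were above 0 after loess. The brighter one (A_52_P158431, chr2:169713711-169713770, mm9, plus strand) had processed signals of 3228 (control) and 4022.9 (Gata2cKO) on array 1 and 4035.6 and 4353.9 on array 2. The control of array 2 was a little above the Gata2cKO of array 1, so the groups overlapped. The ratios were 0.295 and 0.13, with a mean of 0.21 ± 0.115 (SD, n = 2; interval -0.059 to 0.49; adjusted p = 0.767). The other probe (A_52_P293429, chr2:169711933-169711992) went from 849.4 to 950.1 on array 1 and from 1075.6 to 1240 on array 2. Its ratios were 0.099 and 0.25 (mean 0.17 ± 0.11, SD, n = 2; adjusted p over probes = 0.828). In the authors' deposited table the probes stood at 0.71 and 0.26, and at 0.17 and 0.51.

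The means of Tshz1 and Tshz2 stayed above 0 with median centring in place of loess, at 0.14 and 0.19, but array 2 no longer shared the direction. There Tshz1 was at 0.285 and 0 on arrays 1 and 2 and Tshz2 at 0.42 and -0.048, while Tshz3 stayed above 0 on both arrays at 0.74 and 0.24. The intervals of Tshz1, Tshz2 and Tshz3 overlapped, and differences between these genes were not tested.

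Sox9, a transcription factor of the SRY family that marks cartilage precursors and is also made in the mesenchyme of the early ureter, had about 1.34-fold less signal in the RNA labelled Gata2cKO. Its probe (A_52_P214630, chr11:112648809-112648868, mm9, plus strand) was printed in 10 spots, so its ratio within an array is precise. The SD over these spots was 0.0434 on array 1 and 0.0401 on array 2. The mean processed signal was 2174.5 in the control and 1520.1 in the Gata2cKO on array 1, and 2227 and 1755.4 on array 2. Both Gata2cKO values were under both control values. The ratios were -0.51 and -0.34, with a mean of -0.42 ± 0.12 (SD, n = 2; interval -0.70 to -0.15; adjusted p = 0.41).

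The gap between the arrays was larger than the spread of the spots within one. In the authors' deposited table Sox9 stood at 0.51 for array 1 and -0.41 for array 2. The first of these has the opposite sign to all settings run on the scanner values.

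Tcf21, a basic helix-loop-helix transcription factor of visceral mesenchyme, had no common direction after loess. Its probe (A_51_P459944, chr10:22537563-22537622, mm9, minus strand) had processed signals of 24200.8 (control) and 19441.8 (Gata2cKO) on array 1 and 23055 and 22977.6 on array 2. The female Gata2cKO RNA stood apart from the other 3 values. The ratios were -0.32 and 0.056, with a mean of -0.13 ± 0.27 (SD, n = 2; interval -0.46 to 0.19; adjusted p = 0.917). By brightness Tshz3 lay just outside the top 25% of genes, with 25.1% of genes brighter. Tcf21 was the only regulator among the brightest 25% of genes, where 58.1% of genes had opposite signs on the arrays, against 43.1% of the others. With median centring its ratios were 0.115 and -0.49, so both signs turned, and in the authors' deposited table they were -0.29 and 0.80. On the processed signals both were below 0, at -0.316 and -0.005.

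**Figure D3:**
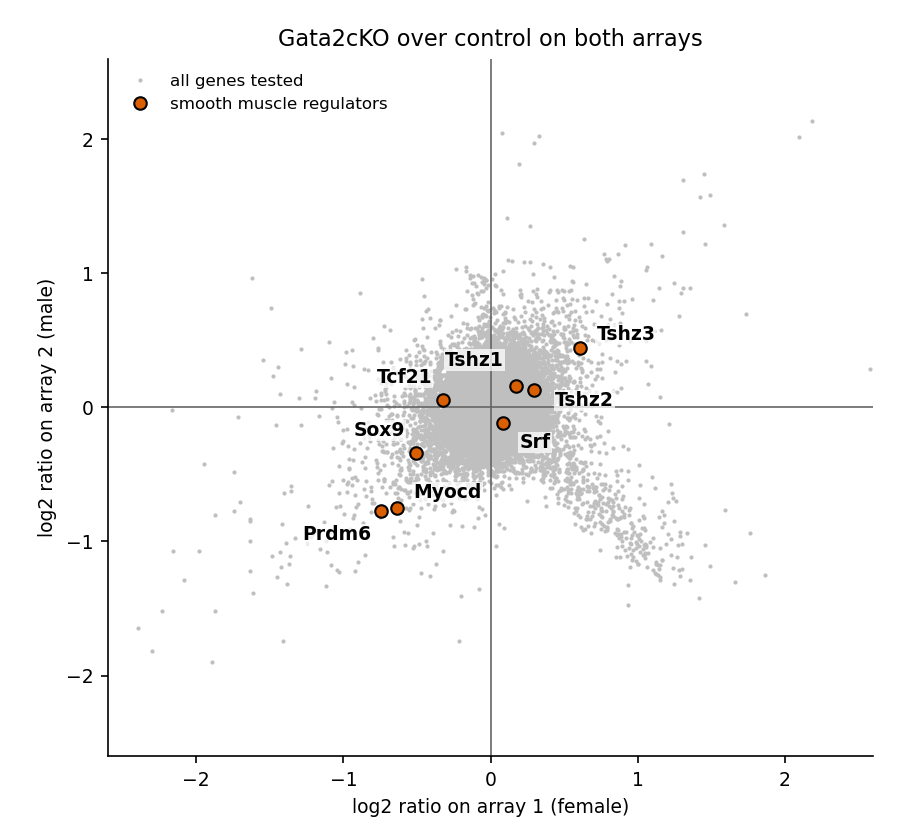
Log2 ratio of Gata2cKO over control on array 1 (x axis) against array 2 (y axis) for the 20506 genes tested (grey, with 1 gene outside the axes) and the 8 regulators (orange). Prdm6, Myocd and Sox9 lie at the lower left, Tshz3, Tshz2 and Tshz1 at the upper right (with median centring only Tshz3 did), and Srf and Tcf21 where the signs differ.

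The calls also depended on how the spread was modelled, while the ratios stayed as they were. When limma's prior was allowed to follow brightness and to be robust to outlying genes (trend and robust), 1.83% of all genes had an adjusted p under 0.05. Myocd (adjusted p = 0.00215), Prdm6 (adjusted p = 0.00199) and Tshz3 (adjusted p = 0.0241) were then past the threshold, and Sox9 (adjusted p = 0.0766) was not. With 2 arrays there is 1 residual degree of freedom per gene, so each of these p-values rests largely on that prior.

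**Figure D4:**
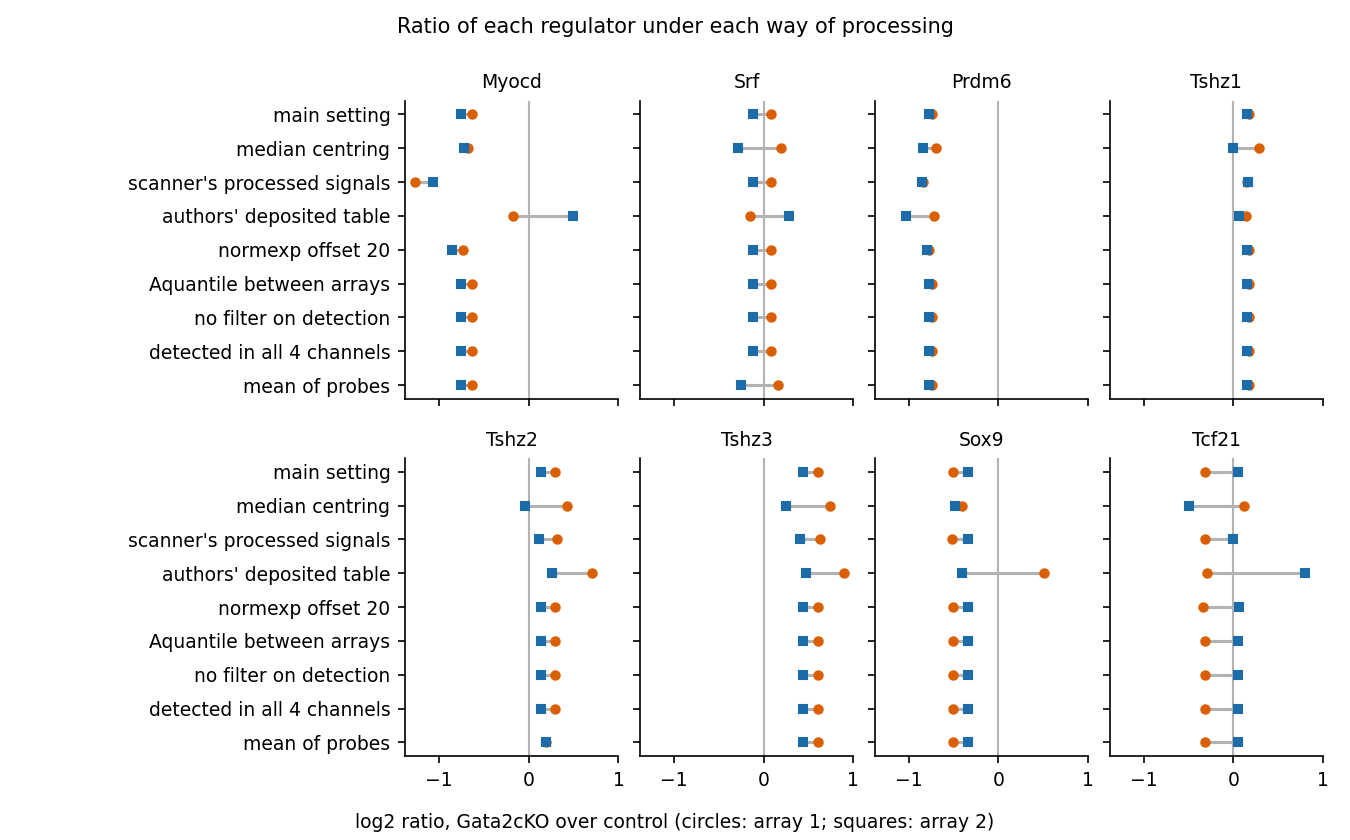
Log2 ratio of each regulator on array 1 (circles) and array 2 (squares) under the main setting and 8 alternatives, with a line joining the arrays. Prdm6 lies below 0 and Tshz3 above 0 in every row, while Myocd and Sox9 cross 0 in the row of the authors' deposited table alone. The rows of Aquantile scaling and of the other filters on detection repeat the main ratios.

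Of the contractile genes that myocardin and SRF act on, 10 of 15 tested were lower on both arrays and 1 was higher, and 4 were at least 1.5-fold lower on both. Over all genes these shares were 26.2%, 27% and 0.439%. None of the contractile genes passed the adjusted p of 0.05 in limma, 6 had an unadjusted p under 0.05, and 4 passed with trend and robust and 3 (Actg2, Cnn1 and Myh11) on processed signals. Over all genes 7.17%, 1.83% and 0.844% were called in these ways. The median ratio of the list was -0.21, beside 0.0028 over all genes. With median centring 7 genes of the list were lower on both arrays and 0 higher (median -0.21), and 9 and 1 in the authors' deposited table (median -0.39). Myh11, smooth muscle myosin heavy chain, stood at -1.05 and -1.21 (mean -1.13 ± 0.12, SD, n = 2; adjusted p = 0.0509). Actg2, smooth muscle gamma actin, stood at -1.03 and -1.22 (mean -1.13 ± 0.14, SD, n = 2; adjusted p = 0.0532). Both lay just outside the threshold, and after loess their means were further from 0 than that of Myocd, whose spots were dim. On the processed signals Myocd was at -1.17, beside -1.18 for Actg2 and -1.3 for Myh11. The genes whose promoters are printed, Myl9 (myosin light chain) and Vcl (vinculin), stood at -0.56 and -0.26, and at 0.14 and 0.015. Lmod1 was not well above background. The summed signal of the list was 95264 and 101114 in the controls and 75053 and 88151 in the Gata2cKO RNAs. Bright genes weigh most in such sums. Here Myl9 alone had 37260.9 and 32273.8 in the controls and 23182 and 28351.2 in the Gata2cKO RNAs.

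By their brightest probes after loess, few of the other genes whose products bind SRF or myocardin were lower on both arrays. Of 11 such genes (myocardin-related factors, Elk and Mef2 factors, Fhl2 and Csrp genes) 5 were higher on both arrays and 1 was lower, with a median of 0.098, and 0 passed in limma (0 at an unadjusted p under 0.05). With median centring 1 was higher and 1 lower (median 0.017), and 3 and 3 in the authors' deposited table (median 0.029). With the mean of a gene's probes in place of the brightest, 4 were higher and 4 lower, so the counts depended on the probe. Mef2c, a MADS box factor that binds myocardin, stood at 0.27 and 0.25, and Fhl2, a LIM domain cofactor, at 0.23 and 0.11. Of 6 tested repressors of the programme (Foxo4 was not well above background) 3 were higher on both arrays and 2 were lower, with a median of 0.20 (0.18 with median centring and 0.02 in the authors' deposited table). None of them passed in limma, 4 had an unadjusted p under 0.05, and 2 passed with trend and robust. Hey2, a Notch target that blocks myocardin, stood at 0.54 and 0.425, and Twist1, a basic helix-loop-helix factor, at -0.31 and -0.725.

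Regulators upstream of Myocd in the ureteric mesenchyme (Tbx18, Foxf1 and parts of the SHH, BMP and Wnt pathways) numbered 12. Of these 5 were higher on both arrays and 1 was lower, with a median of 0.10, and 0 passed in limma (2 at an unadjusted p under 0.05, 0 with trend and robust). With median centring 1 was higher and 1 lower (median 0.075), and 6 were higher and 2 lower in the authors' deposited table (median 0.40). Id4, an inhibitor of helix-loop-helix factors, stood at 0.49 and 0.39. Tbx18, the locus that carries Cre, stood at 0.65 and 0.15.

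The genes that work with Sox9 or depend on it in cartilage were lower on both arrays in 3 of 6 tested cases and higher in 0, beside 26.2% and 27% of all genes, with a median of -0.17 (-0.18 with median centring and -0.21 in the authors' deposited table). In limma 0 passed, 2 had an unadjusted p under 0.05, and 2 passed with trend and robust and 1 (Col9a1) on processed signals. Acan and Matn1 were not well above background. Col9a1 and Col2a1, which encode cartilage collagens, stood at -0.95 and -0.91 (adjusted p = 0.0714) and at -0.56 and -0.46 (adjusted p = 0.258). Of 4 tested helix-loop-helix partners and relatives of Tcf21 (Msc and Tcf24 were not well above background) 2 were lower on both arrays and 0 higher, with a median of -0.034 that turned to 0.18 in the authors' deposited table, and 0 passed in limma (0 at an unadjusted p under 0.05). Tcf15 stood at -0.35 and -0.17 and Tcf3, a general dimer partner, at -0.062 and -0.064.

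**Figure D5:**
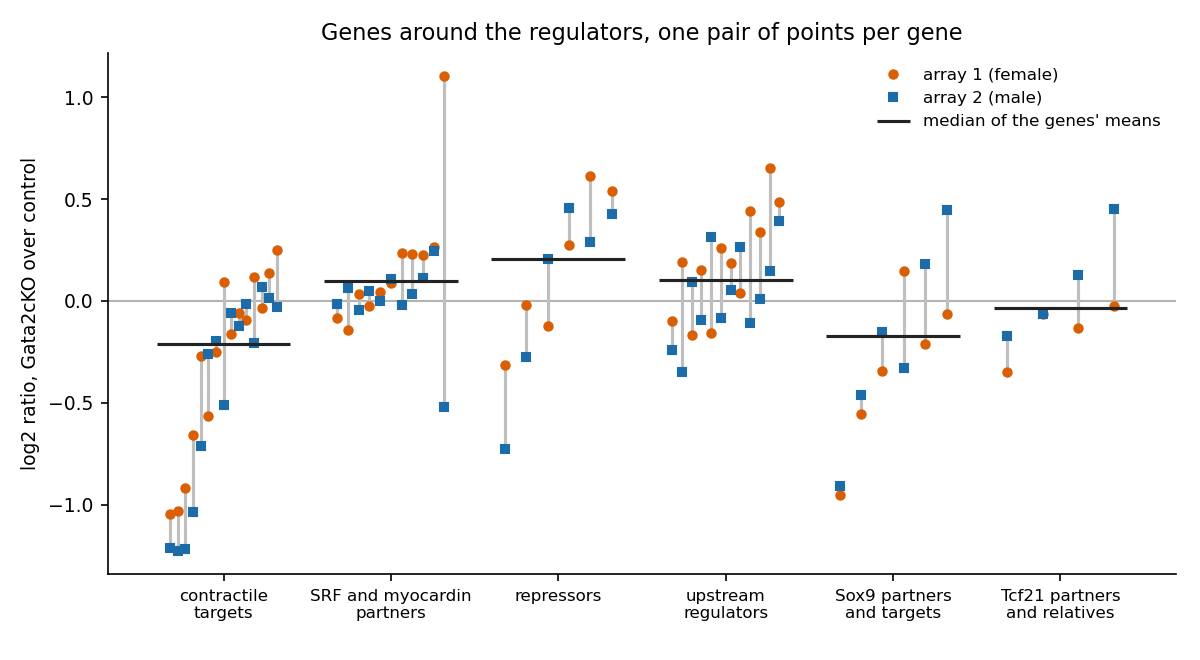
Log2 ratio of Gata2cKO over control on array 1 (circles) and array 2 (squares) for each tested gene of 6 lists around the regulators, with the median of the genes' means (black line). The contractile targets reach the lowest values, with 4 genes at least 1.5-fold lower on both arrays, while the partners of SRF and myocardin have their median at 0.098 (0.017 with median centring).

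Whole ureters hold other cells, and for a bulk sample fewer cells of a type and less RNA per cell cannot be told apart. The counts of markers that follow stand beside 26.2% of all genes lower and 27% higher on both arrays. Markers of neurons and glia were lower on both arrays in 10 of 12 cases and higher in 1, with a median of -0.756. In limma 1 passed and 10 had an unadjusted p under 0.05, while 9 passed with trend and robust and 6 on processed signals. With median centring 11 were lower and 0 passed, and 6 were lower in the authors' deposited table (median -0.335) and 0 passed. Prph, a neuronal intermediate filament gene, fell (-1.38 and -1.32; mean -1.35 ± 0.0465, SD, n = 2; adjusted p = 0.038). The summed signal of the list was 14808 and 15033 in the controls and 9600 and 11645 in the Gata2cKO RNAs.

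Skeletal muscle markers were lower on both arrays in 6 of 7 tested cases and higher in 0 (median -0.54, and -0.27 in the authors' deposited table), with summed signals of 2270 and 2497 against 1688 and 1274. Myh3, an embryonic myosin heavy chain, stood at -0.47 and -1.24 and Myog, myogenin, at -0.41 and -1.25, while Myf5 and Ckm were not well above background. Macrophage markers were lower in 7 of 8 cases and higher in 0 (median -0.32, and -0.38 in the authors' deposited table), with 10659 and 11654 against 7885 and 9239. The complement genes C1qa and C1qc stood at -0.64 and -0.54 and at -0.38 and -0.505. None of the skeletal muscle or macrophage genes passed in limma (5 and 6 at an unadjusted p under 0.05, and 2 and 1 with trend and robust). The medians of the neuron and glia, skeletal muscle and macrophage lists were below 0, as were the loess ratios of Myocd, Prdm6 and Sox9 and the median of the contractile genes, and their part in those values was not tested.

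Markers of vascular mural cells, the other smooth muscle lineage of the ureter, were lower on both arrays in 1 of 6 cases and higher in 3 (median 0.074), with summed signals of 12519 and 15260 in the controls and 13399 and 15180 in the Gata2cKO RNAs. The potassium channel genes Kcnj8 and Abcc9 stood at 0.21 and 0.38 and at 0.105 and 0.37. Endothelial markers were lower in 3 of 8 cases and higher in 1 (median -0.026, and 0.10 in the authors' deposited table), with 26315 and 28414 against 24138 and 28971. Plvap stood at -0.41 and -0.21 and the receptor gene Tek at -0.26 and -0.175.

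Urothelial markers had no direction that held in every source. They were higher in 6 of 10 cases and lower in 0 after loess (median 0.16), higher in 2 and lower in 1 with median centring, and higher in 1 and lower in 5 in the authors' deposited table (median -0.16). Their summed signal was 34613 and 50056 in the controls and 40203 and 52974 in the Gata2cKO RNAs. The uroplakin genes Upk3a and Upk1b stood at 0.89 and 0.14 and at 0.37 and 0.28.

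Markers of kidney progenitors and stroma were higher in 3 of 7 cases and lower in 2 (median 0.061), but higher in 0 and lower in 4 in the authors' deposited table (median -0.126). Their summed signal was 20854 and 20720 against 21134 and 21492. Six2 stood at 0.23 and 1.09 and Pax8 at 0.29 and 0.32. Sertoli cell markers, which together with Sox9 would mark testis, were lower in 1 of 4 tested cases (Gata4, at -0.036 and -0.16) and higher in 0 (median -0.045, and 0.042 in the authors' deposited table), with 449 and 551 against 446 and 542, and Amh was not well above background. No gene of the mural, endothelial, urothelial, kidney and Sertoli cell lists passed in limma, with or without trend and robust. At an unadjusted p under 0.05 there were 1, 1, 3, 2 and 0.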

How the data were processed

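Gene expression was measured on 2 dye-swapped Agilent arrays (design 026655), which, per the file headers, were read by Agilent Feature Extraction 10.7.3.1 (protocol GE2_107_Sep09, coordinates on mm9). The deposited scanner files hold mean and background intensity, and processed intensity that the software background-subtracted, detrended and dye-normalized, per the file headers. The authors' deposited table, used as a score, holds signed fold changes per probe, whose making, scale and centring are not given in the sources used here. It correlated with the scanner ratios at 0.443 and 0.376 over probes, and its direction was taken from that sign.

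Control spots (1224 positive, 153 negative) were left out after background correction, and outlier spots (255 and 178) were left out. No spot was saturated (0). Background was corrected with normexp (offset 50) and ratios with loess (span 0.3), array 2 was turned, and spots of a probe were averaged. Of 39429 probes, 25657 were kept, as well above background in both controls or in both Gata2cKO RNAs. A gene is its brightest kept probe. RefSeq (GRCm38.p6) named 26412 probes and the file 13017.

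The mean ratio was set against 0 by limma 3.58.1 with its functions lmFit and eBayes (R 4.3.3, jsonlite 2.0.0, version 1.17.8 of data.table), two-sided, with a prior of 4.68 degrees of freedom and an SD of 0.163. Figures used Python 3.11.15, pandas 2.3.3 and matplotlib 3.10.9. The functions were tested on simulated data. The labels do not say that the RNAs came from separate animals, so p-values speak only for these samples. Each p draws on the gap between 2 arrays, which also differ in sex and dye orientation, and largely on limma's prior. Having 2 arrays limits the precision. Both arrays lay on 1 slide. Exons were not assigned, since no mm9 annotation was used here.

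The regulators and gene lists were chosen with earlier results of these data known. Of the upstream regulators, 1 gene is not reported here and is in no count of that list. Every regulator and Gata2 are named. Of each list the genes past the threshold are named, or else the 2 (1 for Sertoli cells) with the largest mean ratio of the same sign on both arrays, and Cnn1, Myl9 and Vcl are named for calls or promoters found after the values were seen. Alternatives were median centring, processed signals, deposited folds, a normexp offset of 20, Aquantile scaling, other filters, the mean of a gene's probes, trend and robust, and leaving out an array.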

Additional observations from a re-analysis of the deposited data

Results flagged for a closer look

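Srf and Tcf21 had ratios of opposite sign on the female and the male array. The log2 ratio of Srf on array 1 (0.083) minus that on array 2 (-0.118) was 0.201. For Tcf21 the difference was -0.377, from -0.321 on array 1 and 0.056 on array 2. Neither difference was tested, since each sex has 1 array, and the dye orientation changed with sex. Opposite signs were common among all genes, with 26.2% lower and 27% higher on both arrays.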

How the results depend on the processing

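The count of 18 genes past the adjusted p of 0.05 went to 0 with median centring (492 at an unadjusted p under 0.05, against 1470 in the main setting) and 0 in the authors' deposited table (973). It was 173 on processed signals, 54 with no filter on detection, 35 with detection in all 4 channels and 376 with trend and robust. Regulators past the threshold numbered 2 on processed signals and 3 with trend and robust, against 0 (4 at an unadjusted p under 0.05). Genes at least 1.5-fold the same way on both arrays numbered 146, against 284 on processed signals and 394 in the deposited table. Regulators higher on both arrays went from 3 to 1 with median centring, and those lower on both from 3 to 1 in the deposited table. Those lower on both numbered 4 on processed signals, where Tcf21 was at -0.316 and -0.005. In the deposited table the means turned for Myocd (0.156), Srf (0.065), Sox9 (0.05) and Tcf21 (0.253), and the cause was not tested. Srf was at -0.118 without array 1 and 0.083 without array 2, and Tcf21 at 0.056 and -0.321. The means of Prdm6, Tshz1, Tshz2 and Tshz3 kept their sign in all 8 other ways of processing and on each array alone. Aquantile scaling and the other filters on detection left the ratio of every regulator as it was, so they were no check of these signs. The values on each array alone are those of the main setting. With an offset of 20 Myocd was at -0.80. Depth is no measure here, and the dim spots of Myocd limit its ratio. No paired analysis was possible because each array already holds 1 ratio of both groups.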
